A study of Mus musculus with 20 samples.

Results

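Trp63, Klf4, Klf5, Grhl1, Grhl3, Ovol1, Gata3, Tfap2a, Tfap2c and Zfp750 encode transcription factors that establish and hold epidermal identity. These 10 genes were taken by symbol from a count table of 25719 genes, and all 10 passed the low-count filter that left 12424 genes for testing. RNA was sequenced from keratinocytes sorted from the ear and back skin of 20 mice, 5 in each of 4 groups. All mice carried floxed alleles of Cyp11b1 (Cyp11b1 L2/L2), the gene of the enzyme that completes corticosterone synthesis, and all received tamoxifen on 5 days and were sampled on day 6. The knockout mice (cKO) also carried K14-CreERTam, a Cre recombinase activated by tamoxifen and driven by the promoter of keratin 14, which is active in basal keratinocytes. The controls were littermates without Cre. Tamoxifen in ethanol was spread on ear (20 µl) and shaved back skin (100 µl) in the topical groups, and tamoxifen in oil and ethanol was injected into the peritoneum (100 µl of 10 mg/ml) in the systemic groups. Route therefore cannot be told apart from vehicle and shaving, nor deletion from the presence of Cre. The ages of the mice and the sorting gate are not given in the sources used here. The study asked how a local loss of glucocorticoid synthesis in skin differs from one induced systemically.

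In epidermis, p63 (encoded by Trp63) keeps the basal layer in place and opens the programme of stratification. GATA3, KLF4, OVOL1, ZFP750 and the grainyhead-like factors GRHL1 and GRHL3 act as cells leave that layer and build the barrier, while KLF5 and the AP-2 factors (Tfap2a, Tfap2c) act in both proliferating and differentiating cells. Glucocorticoids given as drugs are known to change keratinocyte differentiation.

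Some properties of the libraries touch these results. Totals ran from 11.6 to 50.1 M counts, mitochondrial genes took 1.87% to 7.49% of them, and Y-linked transcripts marked 3 of 5 mice in each control group and 2 of 5 in each cKO group as male. A sum of 12 satellite-like predicted genes exceeded 50 CPM (counts relative to the library total, on the usual CPM scale) in 6 libraries, which were all 5 systemic controls and systemic cKO 2. Cyp11b1 itself had 9 reads in total over the topical control libraries, 7 over topical cKO, 2 over systemic control and 4 over systemic cKO, so a loss of its transcript was not detectable at this depth. Keratinocyte markers were abundant, with means over all libraries of 43252 CPM (Krt14) and 13056 CPM (Krt10). Gata3 is also a T cell factor, and of the 6 T cell markers, Cd3d, Cd3e, Cd3g, Trac and Trdc had at most 5 counts in any library, whereas Trbc2 averaged 22.4 CPM. The 6 T cell markers summed to 14.3 to 33.9 CPM in topical control, 9.95 to 24.2 in topical cKO, 17.3 to 29.0 in systemic control and 14.2 to 41.1 in systemic cKO. Summed marker levels over all 20 libraries were 7.41 to 35.6 CPM for 5 other immune genes, 1.37 to 32.0 for 6 fibroblast genes, 4.13 to 35.0 for 5 melanocyte genes, 0.482 to 5.76 for 4 endothelial genes, 15.6 to 44.4 for 7 hair follicle genes and 18.6 to 541 for 6 sebaceous gland genes.

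Promoters are shown for Grhl1, Grhl3 and Gata3, the 3 genes whose 95% interval excluded 0 in the comparison of systemic with topical cKO mice below. RefSeq (GRCm38.p6) windows matched 5 of the 10 genes by symbol, namely these 3, Klf4 and Tfap2a. The 250 bases before the start site are printed 5′ to 3′ on the gene's strand, for Grhl1 those of the first of its 2 windows. They lie at chr12:24572037-24572286 (plus strand, Grhl1), chr4:135573633-135573882 (minus strand, Grhl3) and chr2:9878601-9878850 (minus strand, Gata3). Capitals mark matches, on either strand, to the AP-2 motif GCCNNNGGC or the KLF motif CCACCC.
Grhl1 promoter: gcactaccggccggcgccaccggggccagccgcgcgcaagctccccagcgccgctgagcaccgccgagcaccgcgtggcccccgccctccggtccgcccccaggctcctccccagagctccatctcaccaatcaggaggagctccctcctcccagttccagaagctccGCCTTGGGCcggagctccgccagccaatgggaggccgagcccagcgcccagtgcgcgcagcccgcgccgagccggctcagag
Grhl3 promoter: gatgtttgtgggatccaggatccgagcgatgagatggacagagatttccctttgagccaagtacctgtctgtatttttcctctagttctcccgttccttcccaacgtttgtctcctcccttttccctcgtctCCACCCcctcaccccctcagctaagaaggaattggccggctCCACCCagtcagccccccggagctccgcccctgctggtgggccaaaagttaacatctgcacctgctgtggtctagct
Gata3 promoter: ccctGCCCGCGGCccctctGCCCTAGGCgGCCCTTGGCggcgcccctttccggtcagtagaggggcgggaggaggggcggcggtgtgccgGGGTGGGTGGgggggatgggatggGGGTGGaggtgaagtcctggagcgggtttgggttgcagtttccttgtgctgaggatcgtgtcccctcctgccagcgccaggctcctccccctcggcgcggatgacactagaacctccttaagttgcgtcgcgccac
The Grhl1 window held 1 AP-2 match, beginning 82 bases before the start, the Grhl3 window held 2 KLF matches, and the Gata3 window held 3 AP-2 and 3 KLF matches, of which 2 KLF matches overlapped. Of all 32851 RefSeq windows of this length, 13.726% held the AP-2 motif and 28.075% the KLF motif. None of the 7 windows of these 5 genes held the grainyhead motif AACCGGTT (0.116% of all windows), the GATA motif AGATAA (9.988%), the AP-1 motif TGANTCA (6.749%), the TATA motif TATAAA (12.368%) or the palindromic glucocorticoid receptor motif (0.387%). The Grhl1, Grhl3 and Gata3 windows shown were 75.6%, 56.0% and 70.0% G or C, against a median of 52.4% over all windows.

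Per kilobase of exon, the 10 transcripts spanned more than 2 orders of magnitude, from Gata3 to Tfap2a. Gata3 (chr2:9857078-9890034, minus strand, build GRCm38) averaged 423 ± 128 CPM per kb (SD, n = 20 libraries). Ovol1 (chr19:5549136-5560646, minus strand), a zinc finger repressor active as basal cells stop dividing, followed at 255 ± 102. Klf5 (chr14:99298691-99315036, plus strand) stood at 76.7 ± 25.9 and Trp63 (chr16:25683763-25892102, plus strand) at 47.6 ± 10.8. The 4 genes tied to late differentiation came next. Zfp750 (chr11:121510978-121519333, minus strand), a p63 target gene in textbooks, averaged 47.1 ± 18.3 CPM per kb, Grhl3 (chr4:135541888-135573630, minus strand) 35.8 ± 7.56, Klf4 (chr4:55527143-55532466, minus strand) 34.9 ± 11.5 and Grhl1 (chr12:24572283-24617391, plus strand) 24.8 ± 6.83. Of the AP-2 genes, Tfap2c (chr2:172549593-172558622, plus strand) averaged 19.0 ± 3.43 CPM per kb and Tfap2a (chr13:40715302-40738376, minus strand) 1.89 ± 0.709.

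Most steps of this order held within most libraries, although the ranges over libraries overlapped. Gata3 exceeded Ovol1 in 19 of 20 libraries, Ovol1 exceeded Klf5 in 20 and Klf5 exceeded Trp63 in 18. Zfp750 exceeded Grhl3 in 15, Klf4 exceeded Grhl1 in 18 and Grhl1 exceeded Tfap2c in 16. The ranges over libraries overlapped for each pair of neighbours except Tfap2c and Tfap2a, where all 20 libraries had more Tfap2c than Tfap2a. Trp63 exceeded Zfp750 in 11 of 20 libraries and Grhl3 exceeded Klf4 in 13 of 20, so these neighbours did not differ beyond their spread. With the longest transcript or the coding sequence as the length in place of all exons, the 4 highest and the 2 lowest places stayed with the same genes, while Zfp750, Grhl3, Klf4 and Grhl1 changed places among themselves. All 10 genes are protein-coding and their counts do not separate isoforms, such as those of p63 with and without its first domain. Exons of other annotated genes covered 22.0% of the exon bases of Ovol1, 14.6% of Tfap2a and 5.83% of Gata3. Most of that overlap was on the opposite strand, and whether counting used strand is not given, so part of the reads of these 3 genes is uncertain.

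**Figure D1:**
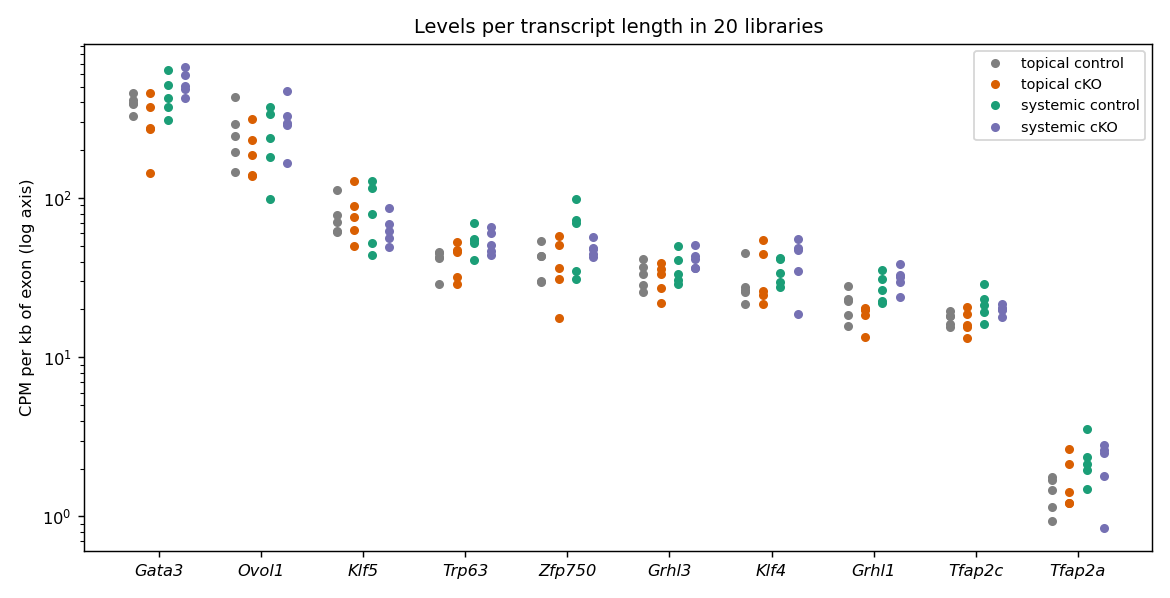
Level of each transcript in CPM per kilobase of exon on a log axis, 1 point per library, coloured by group. Gata3 and Ovol1 lie highest, and Tfap2a lies below every library of the other 9 genes.

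The knockout was compared with the floxed control within each route to ask whether deleting Cyp11b1 moves these regulators. None of the 10 transcripts changed by the test. In topical mice 0 of 10 were called at an adjusted p under 0.05, where 0.129% of all tested genes were called, and 0 of 10 had an unadjusted p under 0.05, against 5.66% of all genes. In systemic mice 0 of 10 were called, against 1.89% of all genes, and 0 of 10 had an unadjusted p under 0.05, against 15.3%. The groups overlapped for 10 of 10 genes in both routes, and did not for 1.4% of all tested genes in topical and 1.94% in systemic mice. The DESeq2 Wald test also called 0 of 10 in both comparisons, as it did in the average over routes and the interaction below.

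Trp63, the gene of the master regulator p63, did not differ between genotypes beyond the spread of mice. Its levels were 244, 354, 359, 379.7 and 387 CPM in topical control and 242, 269.7, 387, 394 and 445 CPM in topical cKO mice. Systemic control mice had 343, 436, 457, 463 and 589 CPM and systemic cKO mice 371, 389.9, 427, 506 and 549 CPM. The groups overlapped in both routes, with a log2 fold change (cKO minus control) of 0.01 (95% interval -0.42 to 0.44) in topical and -0.03 (-0.46 to 0.40) in systemic mice.

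The differences furthest from 0 also lay within the spread between mice. In topical mice these were Gata3, at -0.38 (SE 0.26, adjusted p = 0.988), and Ovol1, at -0.37 (SE 0.35, adjusted p = 0.997). In systemic mice they were Klf5, at -0.37 (SE 0.29, adjusted p = 0.606), and Zfp750, at -0.35 (SE 0.30, adjusted p = 0.644). Klf5, a factor of proliferating epithelium, had 230.0, 270.2, 414, 602 and 663 CPM in systemic control and 256, 293, 326, 360.2 and 449 CPM in systemic cKO mice, and all 5 cKO values lay inside the control range. The median log2 fold change of the 10 genes was -0.05 in topical mice, beside 0.02 over all tested genes, and 0.08 in systemic mice, beside -0.0045.

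Averaged over both routes, which weights each route equally, 0 of 10 genes were called (0.314% of all genes) and 0 of 10 had an unadjusted p under 0.05 (7.65% of all genes). The 10 intervals of this averaged genotype effect lay between -0.64 (Zfp750) and 0.64 (Klf4) on the log2 scale, that is, between 0.640-fold and 1.56-fold. Changes beyond those bounds lie outside every interval. The narrowest interval was that of Tfap2c (-0.31 to 0.13), and the widest that of Ovol1 (-0.54 to 0.50). The biological variation between mice of a group, as edgeR estimates it, ran from 18.2% of the level for Tfap2c to 38.5% for Ovol1, beside a median of 23.0% over all genes.

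The interaction asked whether the genotype difference depended on the route. It called 0 of 10 genes, against 0.25% of all genes, and 0 of 10 had an unadjusted p under 0.05, against 14% of all genes. The largest estimates were 0.70 for Ovol1 (95% interval -0.33 to 1.74), 0.62 for Gata3 (-0.15 to 1.40), -0.44 for Tfap2a (-1.32 to 0.43), -0.44 for Klf5 (-1.30 to 0.42) and 0.43 for Grhl1 (-0.12 to 0.98). These intervals are wide, and 5 of the 10 reached beyond a log2 difference of 1.

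**Figure D2:**
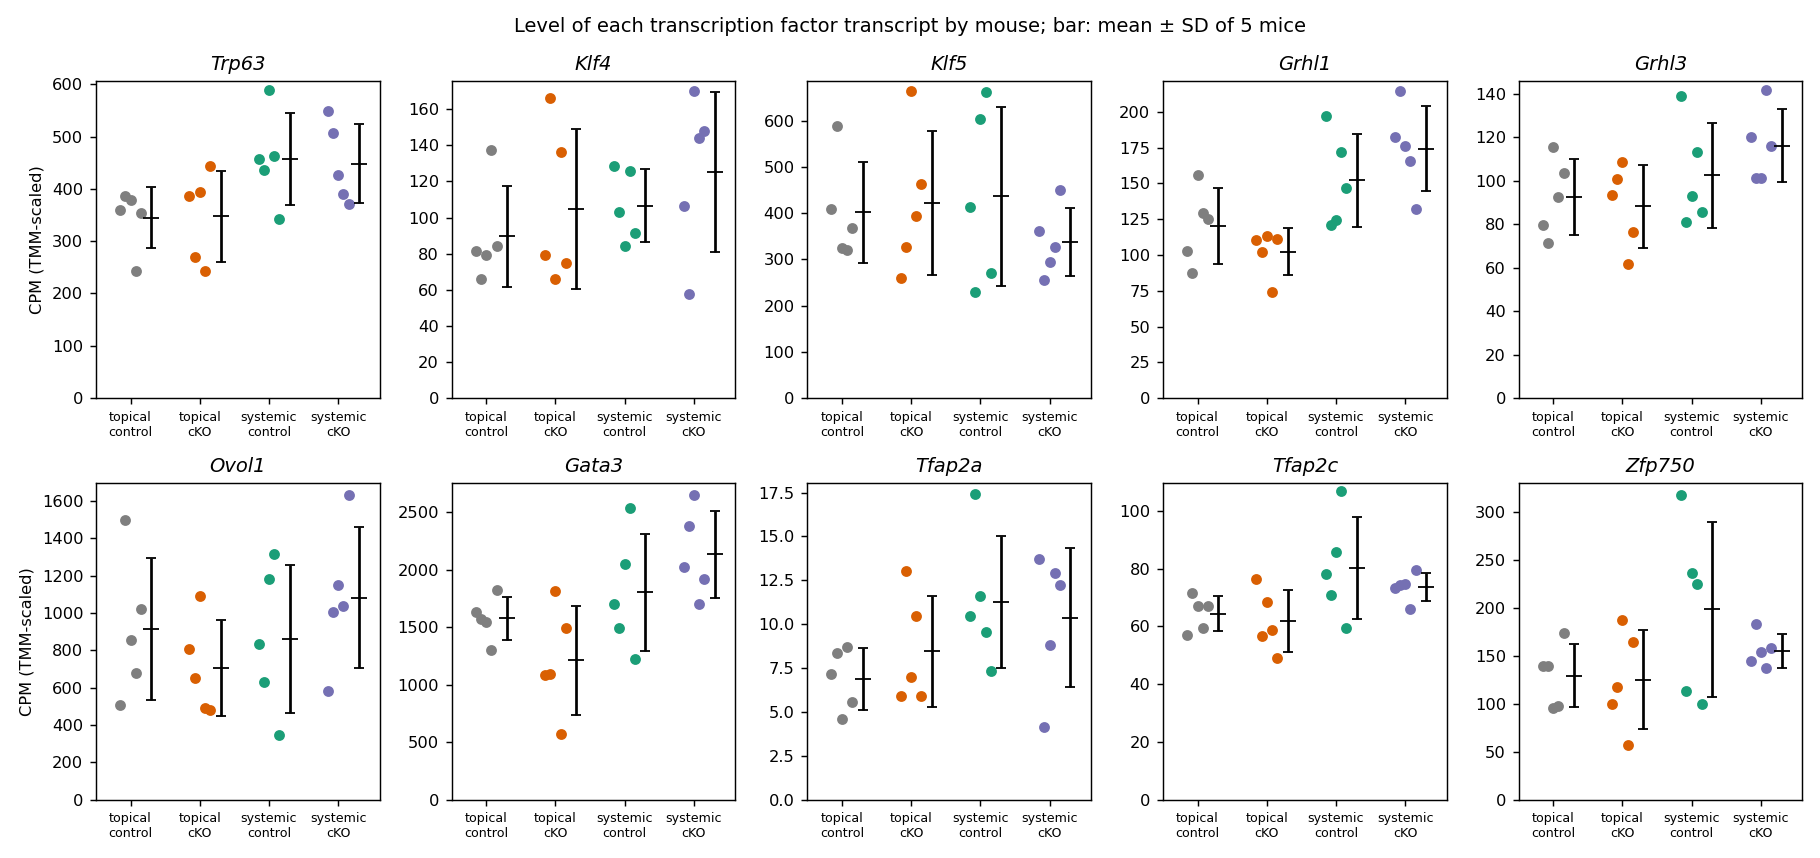
CPM of each transcript (TMM-scaled) in the 4 groups, 1 point per mouse, with the mean and SD of 5 mice beside the points. Grhl1 is the 1 gene whose systemic cKO points all lie above all topical cKO points, and Gata3 overlaps there in 1 topical library.

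Systemic and topical mice were then compared within each genotype. Among cKO mice Grhl1, a grainyhead-like factor whose known targets include desmosomal cadherin genes, was higher after injection. Topical cKO libraries had 73.9, 102, 111, 111 and 113 CPM and systemic cKO libraries 132, 166, 176, 182 and 215 CPM. The groups did not overlap, as was the case for 7.39% of all tested genes, and all 5 systemic libraries were higher. The log2 fold change (systemic minus topical) was 0.77 (SE 0.19, 95% interval 0.38 to 1.16, adjusted p = 0.0114), a 1.71-fold higher level. Grhl1 was the 1 gene of 10 called in this comparison, against 9.22% of all tested genes and 5.19% called higher, so that the share of these genes called was close to the background.

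In bulk samples, fewer cells of a layer and less RNA per cell cannot be told apart. The mitochondrial share of counts differed between these libraries. With that share as a covariate Grhl1 was also called (13.8% of all genes called). The part of that share in the Grhl1 difference was not tested in another way. Among libraries with over 5% mitochondrial counts, topical cKO had 73.9 and 102 CPM and systemic cKO 132 to 182 CPM. Among those below, topical cKO had 111 to 113 CPM and systemic cKO 4, the 1 systemic cKO library there, had 215 CPM. Without the 6 libraries rich in satellite-like transcripts, of which only systemic cKO 2 is in this comparison, the log2 fold change was 0.76 (adjusted p = 0.0227). Of 10 alternatives other than leaving out 1 library, 9 kept the Grhl1 call. The replicate block, described in the last section, ended it. In control mice Grhl1 had 87.5, 102, 125, 129 and 156 CPM after topical and 121, 124, 147, 172 and 197 CPM after systemic tamoxifen. These groups overlapped, and the log2 fold change of 0.34 (95% interval -0.05 to 0.73, adjusted p = 0.212) was not called. The difference between these 2 route effects is the interaction above (adjusted p = 0.487), so the route effect on Grhl1 was not shown to differ between genotypes.

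Gata3, needed for epidermal barrier lipids, had the largest estimate of the 10 among cKO mice and missed the threshold. Its levels were 569, 1086, 1098, 1493 and 1820.1 CPM in topical cKO and 1704, 1919, 2022, 2382 and 2654 CPM in systemic cKO libraries. Topical cKO 4, at 1820.1 CPM, overlapped the lowest systemic library. The log2 fold change was 0.82 (SE 0.27, 95% interval 0.27 to 1.37, adjusted p = 0.056). It passed the threshold in the DESeq2 Wald test (adjusted p = 0.0141, 10.8% of all genes called), with sex as a covariate (0.0216, 10.1% called), with the mitochondrial percent as a covariate (0.00196, 13.8% called) and without topical cKO 4 (0.0248, 7.68% called). It missed the threshold in the other 16 of 20 alternatives, with adjusted p-values up to 0.139 (without topical cKO 5, at 0.64). In control mice the Gata3 estimate was 0.19 (95% interval -0.35 to 0.74). Trbc2, the 1 T cell marker that passed the filter, had an estimate of 0.97 (SE 0.35, adjusted p = 0.0955) among cKO mice, with an unadjusted p of 0.0126, and 0.06 among controls. The part of T cells in the Gata3 levels was not tested.

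Grhl3, the other grainyhead-like gene, had 61.5, 76.3, 93.3, 101 and 109 CPM in topical cKO and 101, 101, 116, 120.2 and 142 CPM in systemic cKO libraries. These overlapped, and its log2 fold change of 0.40 (95% interval 0.01 to 0.78) had an adjusted p of 0.205. Estimates for the other 7 genes in this comparison ran from -0.32 (Klf5, adjusted p = 0.55) to 0.62 (Ovol1, adjusted p = 0.31). In all, 3 of 10 genes had an unadjusted p under 0.05, against 23.1% of all genes. Of the 10 estimates 9 were above 0, with a median of 0.34, beside 48.5% of all tested genes above 0 and a median of -0.01.

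Among control mice 0 of 10 genes were called, although 18.3% of all tested genes were, and 2 of 10 had an unadjusted p under 0.05, against 32.9%. The DESeq2 Wald test also called 0 of 10. The groups overlapped for 10 of 10 genes, and did not for 13.8% of all genes. Estimates were above 0 for 9 of 10, all but Ovol1, beside 50.1% of all genes, and their median was 0.28, beside 0.00081. Tfap2a, the least abundant of the 10, had 4.57, 5.58, 7.16, 8.36 and 8.71 CPM in topical and 7.34, 9.58, 10.5, 11.6 and 17.4 CPM in systemic control libraries. Its groups overlapped, the log2 difference was 0.71 (SE 0.30, adjusted p = 0.0997), and it was called in the fit of the 10 control libraries alone (adjusted p = 0.0402, 20.7% of all genes called). Zfp750 was at 0.62 (SE 0.30, adjusted p = 0.16), Trp63 at 0.41 (SE 0.21, adjusted p = 0.172) and Tfap2c at 0.31 (SE 0.15, adjusted p = 0.149). In this comparison all 5 systemic control libraries are rich in satellite-like transcripts and no topical one is, so route and that property cannot be told apart. The 2 route comparisons share no libraries.

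**Figure D3:**
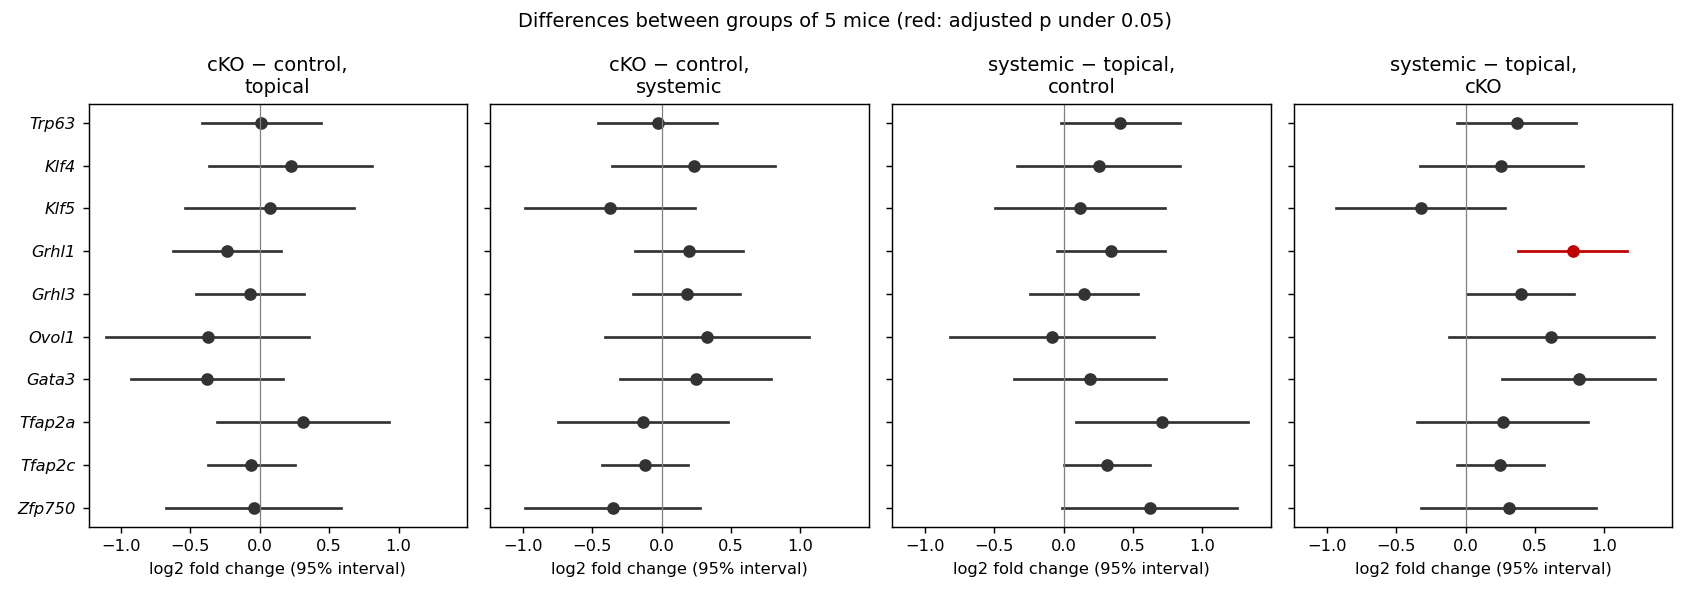
Log2 fold changes with 95% intervals of the 10 transcripts in 4 comparisons of groups of 5 mice, with those called in red. All intervals for genotype cross 0, and Grhl1 in systemic against topical cKO mice is the 1 called value.

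Several of these transcripts stood at different levels in libraries with a low and a high mitochondrial share of counts. The libraries part into 10 with at most 3.68% and 10 with at least 5.24% mitochondrial counts. The higher side holds 2 topical control, 2 topical cKO, 2 systemic control and 4 systemic cKO libraries. Zfp750 ran from 100.0 to 318 CPM (median 179) on the lower side and from 56.8 to 158 CPM (median 116) on the higher side, where 0 of 10 libraries exceeded the lower side's median. Klf4, an activator of barrier genes and also an immediate early gene, went the other way, with medians of 80.4 and 137 CPM, and 9 of 10 libraries on the higher side exceeded the lower side's median. Tfap2a followed Klf4, with medians of 7.08 and 11.4 CPM.

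Within the 4 groups the direction was the same 4 of 4 times for Zfp750, Trp63, Gata3 and Tfap2c, which averaged lower on the side with more mitochondrial counts, and 3 of 4 times for Klf4 and Tfap2a, which averaged higher. The exceptions were the systemic controls for Klf4 and the topical controls for Tfap2a. These are descriptions with no test, since the split was drawn after the libraries were seen. In systemic cKO the lower side is 1 library, systemic cKO 4. The share of all tested genes with such directions was not computed. With the mitochondrial percent as a covariate, 0 of 10 genes were called in the genotype comparisons and the interaction. In the route comparisons that fit called Grhl1, Gata3 and Trp63 among cKO mice (13.8% of all genes called) and Tfap2a and Zfp750 among controls (28.1% called).

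**Figure D4:**
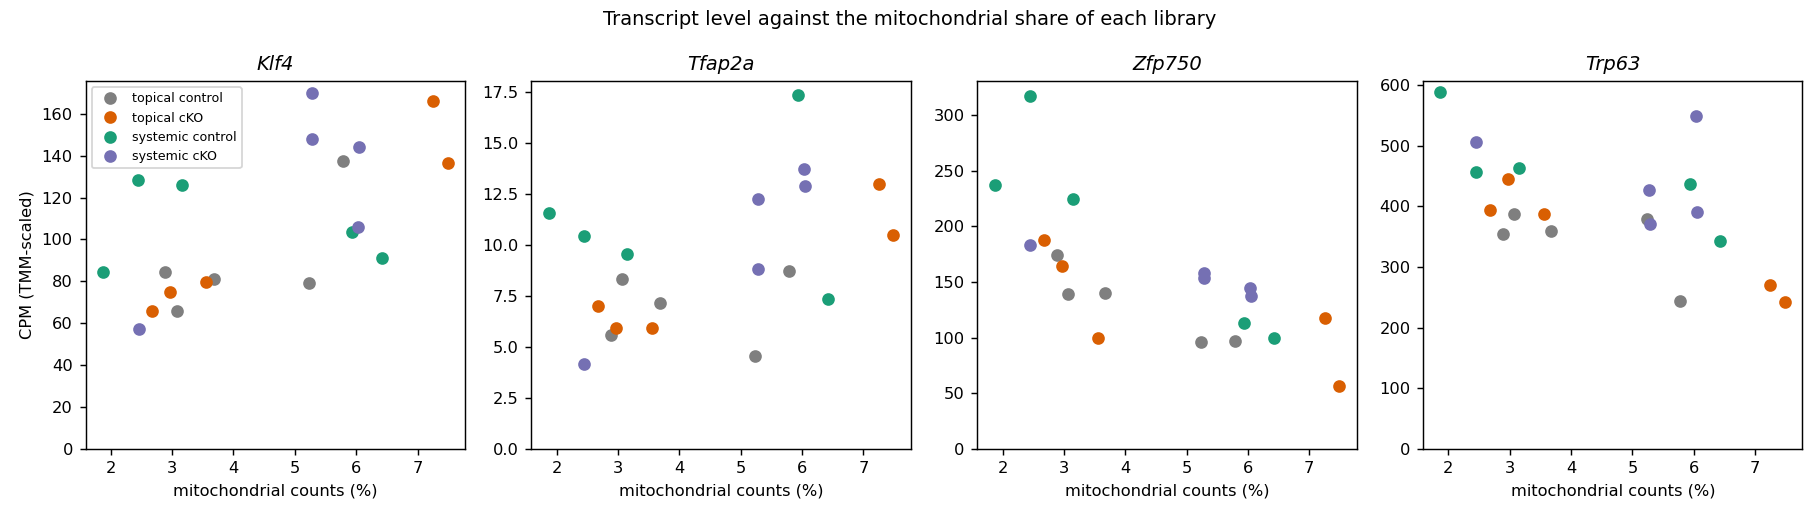
CPM of Klf4, Tfap2a, Zfp750 and Trp63 against the percent of counts from mitochondrial genes, 1 point per library, coloured by group. Zfp750 stays at or below 158 CPM in the libraries above 5%, and Klf4 is mostly higher there.

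Pairs of the 10 transcripts were compared across libraries. Of 45 pairs, 12 had an adjusted permutation p under 0.05 for Pearson's r of log2(CPM + 1) over 20 libraries, and all 12 were positive. Klf5 was in 0 of the 12. The permutations did not keep the groups apart. The share of correlated pairs among all tested genes was not computed, so the count of 12 has no background beside it. Gata3 and Zfp750 had Pearson's r = 0.77 (permutation p = 0.00015, adjusted p = 0.0036) and Spearman's rho = 0.74 (permutation p = 0.00023, adjusted p = 0.00945), and r was 0.69 without the 2 libraries farthest from the Gata3 median. Grhl1 and Grhl3 had Pearson's r = 0.76 (permutation p = 0.00016, adjusted p = 0.0036) and Spearman's rho = 0.72 (permutation p = 0.00042, adjusted p = 0.00945), and r was 0.75 without the 2 farthest. Trp63 with Gata3 had r = 0.73 (permutation p = 0.00024, adjusted p = 0.0036) and Spearman's rho = 0.65 (permutation p = 0.00219, adjusted p = 0.0136).

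Klf4 and Tfap2a, which shared no pair with the other genes among the 12, had Pearson's r = 0.66 (permutation p = 0.00178, adjusted p = 0.0114) and Spearman's rho = 0.71 (permutation p = 0.00065, adjusted p = 0.00975), and r was 0.68 without the 2 farthest. Within the sides of the mitochondrial split, r of Gata3 and Zfp750 was 0.91 (higher) and 0.65 (lower), that of Grhl1 and Grhl3 0.76 and 0.76, and that of Klf4 and Tfap2a 0.43 and 0.65, with 10 libraries each. After each group's mean was removed, these 3 pairs had r = 0.81, 0.67 and 0.63, while the 12 pairs ran down to 0.27 for Trp63 with Grhl1 and 0.33 for Trp63 with Tfap2c. Trp63 with Klf4, not among the 12 (r = -0.37, permutation p = 0.107, adjusted p = 0.22), had r = -0.71 after that step. The points of a pair share a library, its depth and its scaling.

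**Figure D5:**
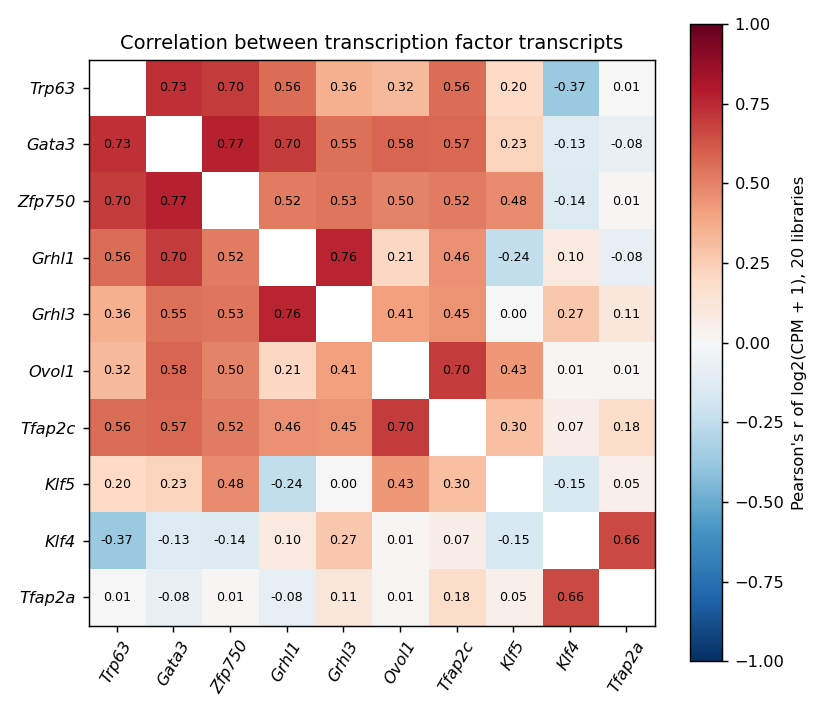
Pearson's r of log2(CPM + 1) between each pair of transcripts over 20 libraries, red for positive and blue for negative values. Trp63, Gata3 and Zfp750 correlate at 0.70 to 0.77 with each other, and Klf4 and Tfap2a at 0.66.

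The tested genes whose levels were most like each of the 10 are given as a description, with r of log2(CPM + 1) over the 20 libraries. For Trp63 they were Sun1 (0.90) and Ddx5 (0.86). For Gata3 they were Il34 (0.91) and Scel (0.90), and Scel encodes sciellin, a cornified envelope precursor. For Zfp750 they were Plcb3 (0.88) and Jup (0.88), and Jup encodes plakoglobin of desmosomes and adherens junctions. For Grhl3 Dsc1 (0.80) is given, which encodes a desmosomal cadherin of the upper epidermis. For Grhl1 they were Hsdl2 (0.93) and Slc35f5 (0.93), and for Ovol1 Litaf (0.85) and Klf10 (0.81). For Klf4 they were Diaph1 (0.90) and Ybx3 (0.89), for Klf5 Pink1 (0.83) and Zfp622 (0.83), for Tfap2a Ptpn23 (0.94) and Tet3 (0.89) and for Tfap2c Rnd3 (0.89) and Ccnd3 (0.85).

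Other epidermal transcription factors and cofactors were read the same way. Of 48 listed, 46 were tested, and edgeR called 0 of 46 for genotype in topical mice (2 at an unadjusted p under 0.05), in systemic mice (5), in the average over routes (3) and in the interaction (3). Of all genes, 5.66%, 15.3%, 7.65% and 14% had an unadjusted p under 0.05 in these comparisons. The DESeq2 Wald test called Cebpa higher in systemic cKO than in systemic control mice (4.64% of all genes called) and Ppard with a negative interaction (2.68% called). It called 0 of 46 in topical mice and in the average. Among controls, 3 of 46 were higher and 3 lower in systemic than in topical mice, where 10.2% of all tested genes were called higher and 8.16% lower. Those higher were the histone methyltransferase gene Kmt2d, at 1.52 (SE 0.22, adjusted p = 0.000164), Ppard, at 1.65 (SE 0.37, adjusted p = 0.00451), and Smarca4, at 0.48 (SE 0.13, adjusted p = 0.0137). Those lower were the corepressor gene Ctbp1, at -0.70 (SE 0.12, adjusted p = 0.000468), Cebpa, at -0.80 (SE 0.22, adjusted p = 0.0149), and Maf, at -0.65 (SE 0.20, adjusted p = 0.032). Maf lost its call without topical control 1, 5 or 6 or systemic control 4, 5 or 6, each left out alone (adjusted p = 0.0599 to 0.0859). Among cKO mice Rora was higher, at 0.65 (SE 0.20, adjusted p = 0.0416), and Ctbp1 lower, at -0.42 (SE 0.12, adjusted p = 0.0252). Of all tested genes 5.19% were called higher there and 4.02% lower. Of 10 alternatives other than leaving out 1 library, 6 kept the call of Rora and 7 that of Ctbp1. Rora lost its call without any 1 of 8 cKO libraries (adjusted p = 0.0603 to 0.11), all but topical cKO 4 and systemic cKO 7. Ctbp1 lost it without topical cKO 3, 5 or 7 or systemic cKO 4, 5 or 6 (adjusted p = 0.0544 to 0.0747). With the satellite-like sum over 50 CPM as a covariate, 1 gene of all 12424 (0.00805%) was called in the control comparison, and of the 6 named there 0 were. Over 9 alternatives other than leaving out 1 library, the estimate of Ctbp1 stayed at -0.97 to -0.64. The estimates nearest 0 were 0.56 for Kmt2d, 0.52 for Ppard, 0.28 for Smarca4, -0.26 for Cebpa and -0.15 for Maf.

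Of 16 basal genes tied to p63 in textbooks, edgeR called 0 for genotype in topical mice and 0 in systemic mice. At an unadjusted p under 0.05 there were 2 in topical mice, against 5.66% of all genes, and 1 in systemic mice, against 15.3%. The DESeq2 Wald test also called 0. In systemic against topical controls 3 of 16 were higher, where 10.2% of all tested genes were called higher. Among the 3 were the basal keratin gene Krt15, at 1.25 (SE 0.32, adjusted p = 0.00922) and the Notch ligand gene Jag2, at 0.89 (SE 0.19, adjusted p = 0.00304). Among cKO mice edgeR called 0 of 16 (1 at an unadjusted p under 0.05, against 23.1% of all genes). The DESeq2 Wald test called 1, Krt15, higher (10.8% of all genes called). Of 7 mesenchymal factors, which OVOL and GRHL proteins are known to hold down in epithelia, only Snai2 passed the filter. It was higher in systemic than in topical controls, at 0.84 (SE 0.20, adjusted p = 0.00646). The calls of Krt15, Jag2 and Snai2 were lost with the satellite-like covariate, with adjusted p-values of 0.939 to 0.984. Over 9 alternatives other than leaving out 1 library, the estimate stayed at 1.09 to 1.26 for Krt15. It ran from 0.31 to 0.90 for Jag2 and from 0.29 to 0.85 for Snai2. Zeb1, Zeb2, Snai1, Twist1, Twist2 and Prrx1 averaged at most 0.103 CPM.

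The list of late differentiation genes holds genes that KLF4, GRHL and ZFP750 proteins are known to activate. In systemic against topical cKO mice 13 of 29 were higher and 2 lower, where 5.19% of all tested genes were called higher and 4.02% lower. Among those higher were the filaggrin-family gene Flg2, at 3.71 (SE 0.48, adjusted p = 6.2e-05), the protease inhibitor gene Spink5, at 2.21 (SE 0.25, adjusted p = 3.0e-05), the kallikrein gene Klk5, at 2.41 (SE 0.37, adjusted p = 0.000258), and the corneodesmosin gene Cdsn, at 2.22 (SE 0.34, adjusted p = 0.000286). Those lower were Sprr1b, at -3.08 (SE 0.72, adjusted p = 0.00908), and the lipid droplet gene Plin2, at -1.65 (SE 0.44, adjusted p = 0.0194). The median of the list was 0.86, beside -0.01 over all tested genes. Without the 6 libraries rich in satellite-like transcripts, of which only systemic cKO 2 is in this comparison, the counts were again 13 and 2 (8.45% of all genes called). Plin2 lost its call without topical cKO 5 (adjusted p = 0.0677) and without systemic cKO 6 (0.0518). In 4 lists of markers of other cell types all estimates had the same sign in this comparison, though edgeR called 0 of these genes. The DESeq2 Wald test called 2 sebaceous genes lower, Pparg and Awat2, and 1 immune gene higher, Cd74 (10.8% of all genes called). The estimates were below 0 for 6 of 6 sebaceous gland genes (median -1.12, 3 at an unadjusted p under 0.05), 4 of 4 tested fibroblast genes (median -1.26, 1) and 3 of 3 tested endothelial genes (median -0.92, 1), and above 0 for 2 of 2 tested immune genes (median 0.81, 1). The summed sebaceous level was 140.3 to 541 CPM in topical cKO and 20.5 to 292 CPM in systemic cKO libraries, the fibroblast sum 3.17 to 32.0 and 2.77 to 6.56, the endothelial sum 0.840 to 5.76 and 0.754 to 2.85, and the immune sum 7.41 to 14.2 and 17.1 to 35.6. Their part in the changes of late genes and of the 10 transcripts was not tested.

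All 5 systemic controls and 1 systemic cKO library were rich in satellite-like transcripts, so genotype and that property largely coincide in systemic mice. The DESeq2 Wald test called 7 of 29 late genes higher in systemic cKO than in systemic control mice, and 4.64% of all genes in either direction. By edgeR 5 of 29 were higher (1.36% of all tested genes). They were Flg2, at 1.78 (SE 0.43, adjusted p = 0.0318), Lor, at 2.62 (SE 0.51, adjusted p = 0.0107), Cldn4, at 2.48 (SE 0.48, adjusted p = 0.00949), Cdsn, at 1.79 (SE 0.34, adjusted p = 0.00728), and Spink5, at 1.20 (SE 0.25, adjusted p = 0.0141). Spink5 lost its call without systemic control 4 or systemic cKO 5 or 6 (adjusted p = 0.0502 to 0.0537). Cldn4, a tight junction gene, was also higher in the average over routes (0.306% of all genes called higher), at 1.75 (SE 0.33, adjusted p = 0.0161). Of 8 alternatives that kept all libraries, 4 ended that call, namely no low-count filter, the replicate block and both satellite-like covariates (adjusted p up to 0.999). With the satellite-like covariate 0 of 12424 genes were called in the systemic genotype comparison and so 0 of these 29. Of 9 alternatives to that comparison other than leaving out 1 library, 6 each kept the calls of Lor, Cdsn and Spink5, and 7 that of Cldn4. In systemic against topical controls 3 of 29 were higher, a share close to the 10.2% of all tested genes called higher there. They were Flg2, at 1.85 (SE 0.47, adjusted p = 0.00985), Ppl, at 0.55 (SE 0.16, adjusted p = 0.0186), and Spink5, at 0.74 (SE 0.25, adjusted p = 0.0384). Spink5 lost its call there without topical control 1, 3 or 7 or systemic control 1, 5 or 6 (adjusted p = 0.0561 to 0.103), and Ppl without topical or systemic control 3 (0.0503 and 0.0533). In topical mice edgeR called 0 of 29 late genes for genotype (3 at an unadjusted p under 0.05, against 5.66% of all genes). In the interaction it called 0 of 29 (8, against 14%). The DESeq2 Wald test called 0 in topical mice and 3 with a positive interaction, namely Lor, Cdsn and Spink5 (2.68% of all genes called).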

How the data were processed

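The authors deposited 1 table of raw read counts for 25719 genes, with 1 column for each of 20 mice. STAR, featureCounts and the builds GRCm38 and mm10 are named in the submitters' processing notes, without versions, and per the labels' protocols total RNA of sorted keratinocytes was made into 1 SmartSeq II library per mouse. Groups and replicate numbers came from the sample names.

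One edgeR model (version 4.0.16, R 4.3.3) covered the 20 libraries: TMM scaling, filterByExpr with a minimum count of 10 and a minimum total of 15, robust quasi-likelihood dispersion and 1 coefficient per group. Quasi-likelihood F tests were two-sided, with Benjamini-Hochberg adjustment across all 12424 tested genes. An adjusted p under 0.05 counts as a call. The 6 contrasts were cKO minus control within each route, their average, their difference, and systemic minus topical within each genotype. DESeq2 1.42.0 served as an alternative. The script was tested on simulated counts with known changes. CPM of single genes use TMM-scaled library totals, and marker sums and the means of marker genes use the total alone. Lengths are exon unions from GENCODE M21 (GRCm38), where 25665 of the identifiers were found. Correlations used log2(CPM + 1) and 100000 permutations over libraries, two-sided, adjusted over the 45 pairs. No molecular identifiers are described, so the replicate spread, and not the count, is the error given.

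The 10 genes, the gene lists, the alternatives and the rule for naming genes were chosen with earlier results of these data known. The rule names all 10 genes, up to 4 called genes in each direction of a described list, and the 2 other named genes most correlated with each of the 10. An average of both route effects and a permutation test of the mitochondrial split were tried and are not reported. Flg2 in the systemic genotype comparison and the genes called by DESeq2 alone were named after their values were seen. Some genes that the rule names are not reported here.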

Additional observations from a re-analysis of the deposited data

Results flagged for a closer look

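Among the 40 sets of 5 mice formed by the 10 genes and 4 groups, 3 had 1 library farther from the others than Dixon's 95% critical value for 5 samples allows, and chance flags about 1 in 20 sets. Trp63 was at 243.9 CPM in topical control 6, below the nearest library of its group at 354.4 CPM. Klf4 was at 137.7 CPM in that same library, above the nearest at 84.2 CPM. Grhl1 was at 73.9 CPM in topical cKO 5, below the nearest at 102.1 CPM. Without topical cKO 5 the Grhl1 difference between systemic and topical cKO mice was 0.67 on the log2 scale (adjusted p = 0.0417). Topical control 6 had 5.78% mitochondrial counts and topical cKO 5 had 7.49%, both on the higher side of the split described above.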

How the results depend on the processing

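Each comparison was repeated with DESeq2 size factors, the DESeq2 Wald test, no low-count filter, only the libraries compared, a replicate block, covariates for sex, satellite-like transcripts (2 forms) and mitochondrial percent, and without each library in turn. Of 1340 repeats of a single gene's result, 1226 kept their direction and their side of the threshold, 8 passed the threshold where the reported value did not, 1 lost it, and 105 changed sign, none of them called. The count of the 10 genes called stayed at 0 under all of these in the genotype comparisons, their average and the interaction. In systemic against topical controls it was 1 with only the libraries compared and 2 with the mitochondrial percent. In systemic against topical cKO it was 2 with the DESeq2 Wald test, 2 with sex, 3 with the mitochondrial percent, 0 with the replicate block and 1 to 2 with a library left out. Of the 20 pairs of libraries with the same number, 9 had deviations from their group means that correlated over 0.1 (-0.38 to 0.58), so the numbers were not taken to pair mice; with the number as a replicate block, Grhl1 in systemic against topical cKO was 0.70 (SE 0.21, adjusted p = 0.0543), and the numbers of genes called over the whole table went from 1145 to 937 there and from 2277 to 2183 in controls. With the replicate block, signs changed in cKO against control in topical mice those of Trp63 (-0.20) and Klf5 (-0.097), in cKO against control in systemic mice those of Tfap2a (0.0093), in the interaction those of Trp63 (0.082), Klf4 (-0.18) and Tfap2c (0.035). With sex as a covariate, signs changed in cKO against control in topical mice those of Trp63 (-0.029) and Klf5 (-0.060). With the log2 satellite-like sum as a covariate, signs changed in cKO against control in topical mice those of Zfp750 (0.020), in cKO against control in systemic mice those of Trp63 (0.031), Ovol1 (-0.18) and Tfap2a (0.21), in the averaged genotype effect those of Trp63 (0.016), in the interaction those of Trp63 (0.031) and Klf4 (-0.097), in systemic against topical in controls those of Ovol1 (0.49). With the mitochondrial percent as a covariate, signs changed in cKO against control in topical mice those of Zfp750 (0.085), in cKO against control in systemic mice those of Trp63 (0.12), Klf4 (-0.039) and Zfp750 (0.012), in the averaged genotype effect those of Trp63 (0.089), Klf5 (0.016), Grhl1 (0.013), Ovol1 (0.18), Gata3 (0.053), Tfap2a (-0.12) and Zfp750 (0.048), in the interaction those of Trp63 (0.053) and Klf4 (-0.088). With a satellite-like sum over 50 CPM as a covariate, signs changed in cKO against control in systemic mice those of Trp63 (0.26), Klf4 (-0.0068), Ovol1 (-0.57) and Tfap2a (0.29), in the averaged genotype effect those of Trp63 (0.14) and Grhl1 (0.014), in the interaction those of Trp63 (0.25), Klf4 (-0.23) and Ovol1 (-0.19), in systemic against topical in controls those of Klf5 (-0.0030) and Ovol1 (0.97). With no low-count filter, signs changed in the averaged genotype effect those of Trp63 (0.0021). Leaving out 1 library changed signs in cKO against control in topical mice Trp63 (-0.094 to 0.12), Klf4 (-0.0049 to 0.43), Klf5 (-0.15 to 0.25), Grhl3 (-0.16 to 0.035), Tfap2c (-0.14 to 0.013) and Zfp750 (-0.24 to 0.14), in cKO against control in systemic mice Trp63 (-0.12 to 0.080), Tfap2a (-0.26 to 0.079) and Tfap2c (-0.21 to 0.0043), in the averaged genotype effect Trp63 (-0.061 to 0.045), Grhl1 (-0.066 to 0.038), Ovol1 (-0.13 to 0.10), Gata3 (-0.16 to 0.023) and Tfap2a (-0.012 to 0.19), in the interaction Trp63 (-0.14 to 0.070), Klf4 (-0.20 to 0.24) and Tfap2c (-0.15 to 0.064), in systemic against topical in controls Klf5 (-0.083 to 0.30) and Ovol1 (-0.29 to 0.17). The numbers called over the whole table moved by over 1.5 times as follows. For cKO against control in topical mice 16 became 42 with the DESeq2 Wald test, 9 with the replicate block and 10 to 19 with a library left out. In systemic mice 235 became 546 with the DESeq2 Wald test, 35 with only the libraries compared, 0 with either satellite-like covariate, 1320 with the mitochondrial percent, and 81 (without systemic cKO 6) to 787 (without systemic cKO 2) with a library left out. The average went from 39 to 100, 1, 14 and 148 with the DESeq2 Wald test, the satellite-like sum over 50 CPM, its log2 form and the mitochondrial percent, and to 138 without systemic cKO 2. The interaction went from 31 to 316 with the DESeq2 Wald test, 49 with sex, 364 with the mitochondrial percent, 0 with the replicate block or either satellite-like covariate, and 16 to 470 with a library left out. Route in controls went from 2277 to 1, 118 and 3496 with the satellite-like sum over 50 CPM, its log2 form and the mitochondrial percent and to 1463 without systemic control 3, and route in cKO from 1145 to 746 without topical cKO 5. Without the 6 libraries rich in satellite-like transcripts, an alternative chosen after seeing the data, the 2 comparisons it allows (genotype in topical mice, route in cKO) kept 0 and 1 genes called. The cause of these changes was not tested. As to depth, the least abundant gene, Tfap2a, had 67 to 411 counts in a library, and the others at least 562; no alternative varied depth.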
